A study of Mus musculus with 6 samples.

Results

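Collagens are the structural proteins of connective tissue, and the genioglossus, the main muscle that protrudes the tongue, holds them around its fibres, vessels and nerves and in its tendon. The genes described here are all rows of the deposited gene lists whose symbol reads Col, a number, a, and a number (the usual form of a collagen chain gene) and that carried at least 100 unique molecular identifiers (UMIs, the count of captured RNA molecules) summed over the deposited matrices. Of 33696 genes, 44 fit the name pattern and 42 passed. The lowest gene inside the limit was Col9a1 with 156 UMIs, and the 2 genes left outside were Col6a4 with 79 UMIs and Col10a1 with 4 UMIs. The values that follow were read per library and per cell class.

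The study compared single cells from the genioglossus of male mice (Mus musculus) 4 weeks after modelling of obstructive sleep apnoea (the group labelled OSA-4W, called OSA here) with those of control males, all labelled as batch 1. The droplet method of 10x Genomics was used, which counts RNA molecules per cell barcode. How the apnoea was modelled, and the strain and age of the mice, are not given in the sources used here. Matrices of 3 OSA libraries (OSA 1, 2 and 3) and of 1 control library (control 2) were analysed, so each comparison sets 3 values against 1. No label says that the libraries came from separate animals, so each p-value speaks of how far these libraries lie apart, which may be technical.

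The matrices held 78935595, 74007957 and 82184913 UMIs in OSA 1, 2 and 3, against 70217449 in control 2. After doublet calls and filters, 15201, 12209 and 13735 cells were kept in the OSA libraries and 13242 in the control library. Libraries shared between 41 and 67 barcodes, at most 0.466% of a library. The labels call the material skeletal muscle cells, but the kept cells were mostly of other kinds. The myofibre-like class held between 0.01% and 0.08% of the kept cells and the satellite-cell-like class between 2.05% and 2.34%. Fibroblast-like cells made up 14.86%, 20.96% and 26.29% of the OSA libraries and 19.01% of the control library. Macrophage-like cells made up 3.64%, 4.84% and 13.49% of the OSA libraries and 2.02% of the control library. A class was named from marker genes, and every class name below (fibroblasts, tenocytes, mural cells, endothelial and lymphatic endothelial cells, Schwann cells, satellite cells, macrophages, T and NK cells, neutrophils) stands for such a marker-named, "like" class. Clusters without a clear marker set stayed unnamed, and they held 10.3%, 11.1% and 5.41% of the collagen UMIs in the OSA libraries and 12.5% in the control library. The collagen genes were left out of the clustering.

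A collagen molecule winds several chains into a helix, and the chains may be the same or come from different genes. Fibrillar collagens (types I, II, III, V, XI, XXIV and XXVII) build the banded fibres that bear tension. Type IV collagen builds the sheet-like network of basement membranes under endothelium and around muscle fibres, pericytes and Schwann cells. Type VI forms beaded filaments beside cells, fibril-associated collagens such as types XII and XIV decorate the fibres, and types XV and XVIII lie between basement membrane and fibre. In skeletal muscle, fibroblasts and tendon cells make most of the fibrillar collagen.

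The upstream sequences of 4 chains are shown because the data return to them: Col4a1 and Col4a2, the chains of the common type IV trimer, whose levels and ratio by class are given further on, and Col1a2 and Col3a1, the chains that passed the test in whole classes in the OSA comparison. Each window runs from 250 bases before the gene's start to 50 bases after it, 5′ to 3′ on the gene's strand, from RefSeq on build GRCm38.p6. The count files were made on GRCm39, so these positions apply to GRCm38.p6 and to no file value. The table held windows for 33 of the 42 genes. In the first pair, capitals mark the 78 bases that both windows hold, read on opposite strands, at chr8:11312777-11312854. Col4a1 lies on the minus strand at chr8:11312777-11313076 and Col4a2 on the plus strand at chr8:11312555-11312854.
Col4a1: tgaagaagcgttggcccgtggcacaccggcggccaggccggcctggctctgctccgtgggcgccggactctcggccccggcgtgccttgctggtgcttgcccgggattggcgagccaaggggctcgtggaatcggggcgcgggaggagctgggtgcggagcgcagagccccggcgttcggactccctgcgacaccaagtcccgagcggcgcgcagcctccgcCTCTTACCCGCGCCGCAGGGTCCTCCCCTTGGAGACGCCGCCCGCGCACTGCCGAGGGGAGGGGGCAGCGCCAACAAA
Col4a2: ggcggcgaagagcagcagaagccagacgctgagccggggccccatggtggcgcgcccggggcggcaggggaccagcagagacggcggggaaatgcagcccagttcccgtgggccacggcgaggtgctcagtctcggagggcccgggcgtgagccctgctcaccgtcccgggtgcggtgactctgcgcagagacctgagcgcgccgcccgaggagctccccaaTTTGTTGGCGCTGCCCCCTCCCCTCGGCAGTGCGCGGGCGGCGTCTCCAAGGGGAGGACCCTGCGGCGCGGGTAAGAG
The starts of these genes lay 21 bases apart on opposite strands, head to head and overlapping, so that each gene read across the start of the other. The windows of Col4a5 and Col4a6, also a head-to-head pair, shared 0 bases and had starts 1343 bases apart. In the next pair, capitals mark CCAAT read on either strand, of which the Col1a2 window (plus strand, chr6:4505368-4505667) held 2 and the Col3a1 window (plus strand, chr1:45311288-45311587) held 0.
Col1a2: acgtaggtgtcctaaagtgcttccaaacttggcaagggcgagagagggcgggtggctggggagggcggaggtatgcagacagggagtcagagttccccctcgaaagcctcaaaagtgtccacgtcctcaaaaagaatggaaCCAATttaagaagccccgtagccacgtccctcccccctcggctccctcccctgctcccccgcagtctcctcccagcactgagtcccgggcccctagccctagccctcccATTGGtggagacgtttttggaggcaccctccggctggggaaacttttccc
Col3a1: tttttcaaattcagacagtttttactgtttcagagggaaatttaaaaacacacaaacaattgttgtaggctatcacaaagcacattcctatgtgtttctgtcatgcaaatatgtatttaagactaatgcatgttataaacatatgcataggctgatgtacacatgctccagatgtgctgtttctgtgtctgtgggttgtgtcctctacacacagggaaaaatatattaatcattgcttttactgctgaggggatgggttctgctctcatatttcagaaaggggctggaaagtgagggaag
The share of G and C was 61.0% for Col1a2, 37.7% for Col3a1, 74.0% for Col4a1 and 73.7% for Col4a2, against a median of 52.7% over 32851 promoter windows. Motifs were searched on both strands. CCAAT was found in 12 of the 36 windows of collagen genes (33.3%) and in 37.4% of all windows. TATAAA was found in 4 (11.1%), the Col3a1 window among them, and in 13.6% of all windows. GGGCGG was found in 22 (61.1%) and in 35.7% of all windows.

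The collagen chains differed in the class where they were highest. Levels between classes are given as CPM, the counts of a gene scaled to a common total of UMIs of the class in a library, averaged over the 4 libraries, and they compare a gene with itself across classes, not one gene with another. Of the 42 genes, 33 had the same highest of the 10 classes compared in all 4 libraries, and 27 were at least 2-fold higher there than in the next class. Fibroblasts were highest for 14 genes, tenocytes for 11, Schwann cells for 7, satellite and mural cells for 3 each, and endothelial and lymphatic endothelial cells for 2 each. These counts include chains near the limit of counting in all 10 classes, such as Col17a1 (counted for satellite cells) and Col7a1 (counted for tenocytes). The small epithelial class, which held many of the Col17a1 UMIs, was not among the 10.

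**Figure D1:**
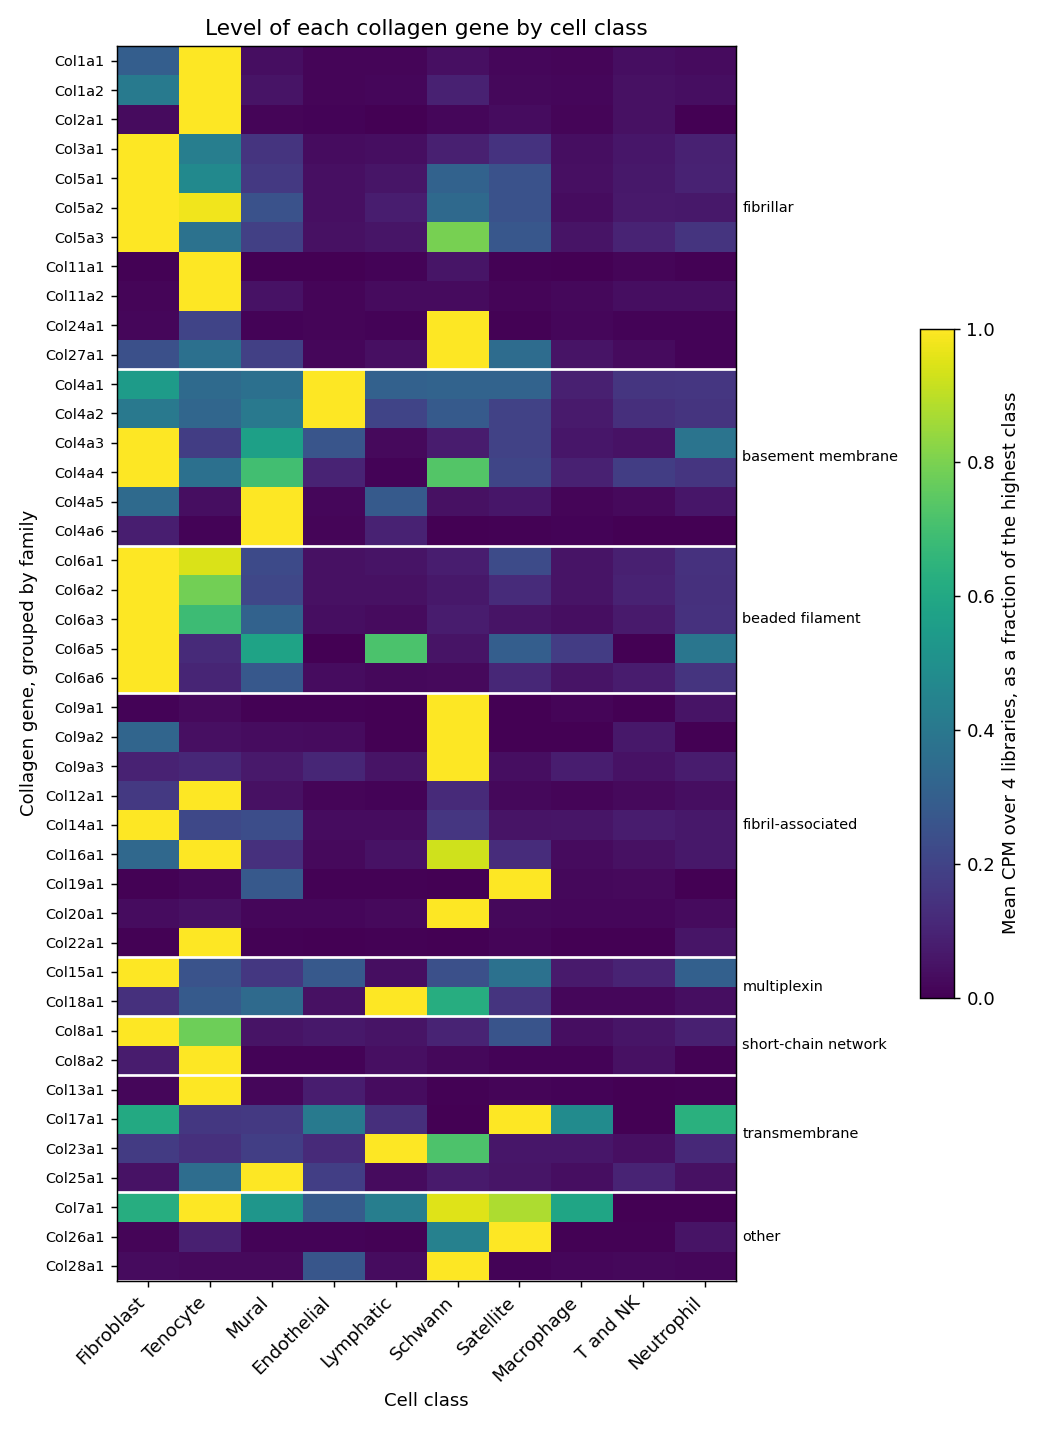
Mean CPM over the 4 libraries of each of the 42 collagen genes (rows, grouped by family) in 10 cell classes (columns), drawn as a fraction of the gene's highest class. Tenocytes hold the brightest cells of Col11a1, Col12a1 and Col22a1, Schwann cells those of Col9a1, Col20a1 and Col28a1, and endothelial cells those of Col4a1 and Col4a2.

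Tenocytes, the cells of tendon, had the highest type I collagen per UMI. Col1a1, the α1 chain of type I collagen, averaged 7070 CPM there, 3.34-fold the 2120 CPM of fibroblasts. Col1a2, its α2 chain, averaged 4943 CPM, 2.44-fold that of fibroblasts. Since tenocytes were fewer, fibroblasts still held 62.0% of all Col1a1 UMIs of the kept cells and tenocytes 27.6%. Several less abundant chains were also highest in tenocytes. Col11a1, a chain of type XI collagen that sets the width of thin fibrils, averaged 333 CPM in tenocytes, 17.5-fold the next class, and 84.4% of its UMIs came from them. Col22a1, a collagen of the muscle-tendon junction, averaged 72.9 CPM, and 85.3% of its UMIs came from tenocytes. Col2a1, best known from cartilage, was low, at 18.1 CPM, but 23.0-fold the next class. Col12a1, a fibril-associated chain, averaged 455 CPM (5.99-fold), Col8a2 70.9 CPM (13.1-fold) and the transmembrane collagen Col13a1 83.9 CPM (12.5-fold).

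Fibroblasts had the highest average for the type III, V and VI chains, though for some by little. Col3a1, the only chain of type III collagen, averaged 1807 CPM in fibroblasts and 772 CPM in tenocytes, and 83.5% of its UMIs came from fibroblasts. Of type V, Col5a1 averaged 240 CPM in fibroblasts and 114 CPM in tenocytes, the next class. Col5a2 was near even, at 280 CPM in fibroblasts and 273 CPM in tenocytes. Col5a3 averaged 160 CPM in fibroblasts and 127 CPM in Schwann cells. For Col5a2 and Col5a3 fibroblasts were highest in 3 of the 4 libraries. Col6a1, a type VI chain, was near even and averaged 559 CPM in fibroblasts and 528 CPM in tenocytes. Col14a1, a fibril-associated chain, averaged 428 CPM (4.26-fold mural cells, the next class). Col15a1 averaged 272 CPM, against 101 CPM in satellite cells.

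Within the fibroblasts the clusters differed in their chains. Cluster 12 (led by Smoc2 and Cxcl14) had 451 CPM of Col15a1, pooled over the libraries, against 58.3 CPM in cluster 10 (led by Pi16). Col4a1 was 1017 CPM in cluster 12 and 364 CPM in cluster 10, and Col8a1 356 CPM and 74.6 CPM. Col14a1 went the other way, with 278 CPM in cluster 12 and 544 CPM in cluster 10. A smaller cluster, 14, led by the acute-phase gene Saa3 and by Timp1, had the highest type I and III levels of the fibroblasts. Its Col1a1 was 7561 CPM, against 1724 CPM in cluster 10 and 1555 CPM in cluster 12, and its Col3a1 was 4544 CPM, against 1544 and 1530 CPM. This cluster held 73, 15 and 562 cells in OSA 1, 2 and 3 and 4 cells in the control library, so it is mostly OSA 3.

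Endothelial cells led for the common basement membrane chains. Col4a1 averaged 1315 CPM there, 1.83-fold the 720 CPM of fibroblasts, and Col4a2 averaged 1880 CPM, 2.46-fold the 763 CPM of mural cells. Endothelial cells gave 40.7% of all Col4a1 UMIs and fibroblasts 26.4%. The less common chains Col4a5 and Col4a6 were mural. Col4a5 averaged 63.1 CPM and Col4a6 28.6 CPM in mural cells (10.6-fold the next class). Inside the mural class, cluster 19 had 125 CPM of Col4a5 and 47.4 CPM of Col4a6, cluster 6 had 54.9 and 29.99 CPM, and cluster 18 had 2.8 and 0.6 CPM. Cluster 18 instead held Col4a3 at 29.3 CPM and Col4a4 at 50.9 CPM, the chains that join Col4a5 in the kidney filter. Endothelial cluster 7, led by the venous genes Vwf and Selp, had 47.2 CPM of Col13a1 and 116 CPM of Col18a1 (the source of endostatin), while each other endothelial cluster had at most 11.7 and 9.4 CPM. Lymphatic endothelial cells had the highest Col18a1 (317 CPM) and Col23a1 (63.4 CPM).

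Schwann cells, which wrap axons, led for 7 chains, all of them in every library. Col20a1 averaged 313 CPM (23.2-fold the next class), Col9a1 9.76 CPM (18.97-fold), Col24a1 110 CPM (4.88-fold) and Col28a1 110 CPM (3.73-fold). The 2 Schwann clusters split these chains between them. Cluster 8 had 168.5 CPM of Col24a1, 155 CPM of Col28a1, 50.1 CPM of Col26a1 and 4.3 CPM of Col20a1. Cluster 21, led by Cdh19, had 1.1 CPM of Col24a1, 42.7 CPM of Col28a1, 0.8 CPM of Col26a1 and 842 CPM of Col20a1. Col27a1 was 43.2 CPM in cluster 8 and 301 CPM in cluster 21. The satellite cells, the stem cells of muscle, led for Col19a1 (42.5 CPM, 3.60-fold mural cells) and for Col26a1 (71.9 CPM). Col28a1 was also an endothelial gene by number, with 46.4% of its UMIs in endothelial cells and 27.3% in Schwann cells.

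The collagen genes together took up a larger part of the RNA in every OSA library than in the control library in fibroblasts and in tenocytes. In fibroblasts they made up 1.10%, 1.08% and 1.31% of UMIs in OSA 1, 2 and 3 and 0.841% in control 2. In tenocytes they made up 1.75%, 1.88% and 1.87% in the OSA libraries and 1.46% in the control library. Over all kept cells the shares were 0.551%, 0.670% and 0.727% in the OSA libraries and 0.505% in the control library. The control value lay below all 3 OSA values in these sums and also in mural cells (0.280%, 0.298% and 0.385% OSA, 0.255% control) and Schwann cells (0.362%, 0.369% and 0.389% OSA, 0.319% control). In endothelial cells it lay inside the OSA range (0.331%, 0.393% and 0.395% OSA, 0.358% control), as it did in satellite cells (0.186%, 0.248% and 0.187% OSA, 0.230% control). With the fibroblast clusters that came mostly from 1 library left out, the share in OSA 3 fibroblasts was 0.955%. Of the 10 classes, 7 had every OSA library above the control library. A share over chosen genes was given no test.

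**Figure D2:**
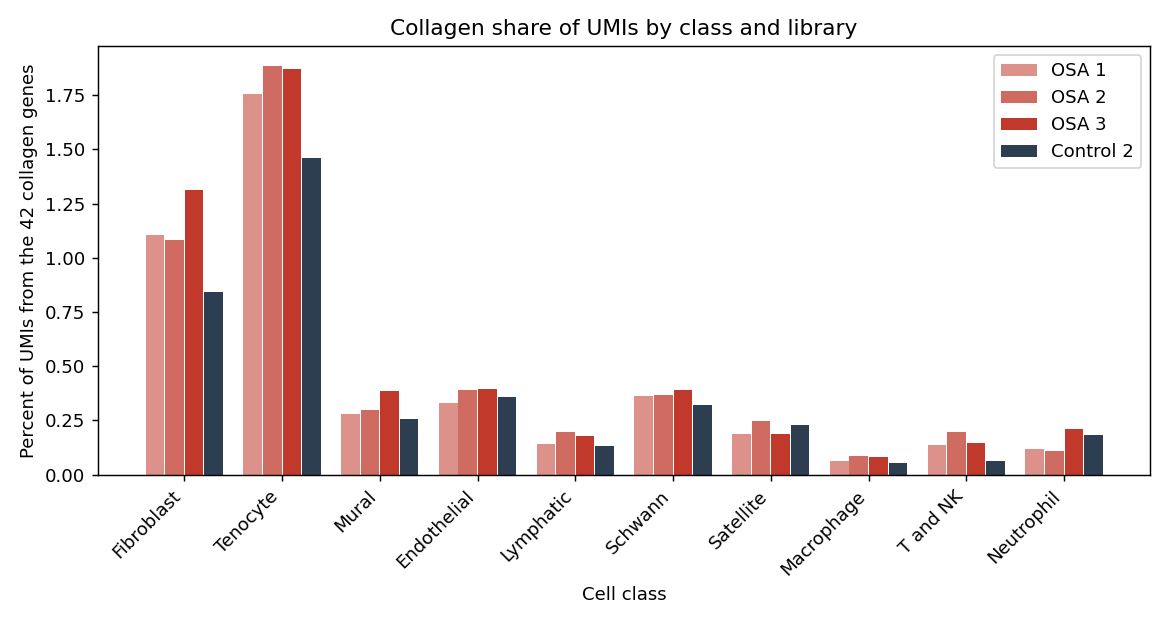
Percent of a class's UMIs that came from the 42 collagen genes, by class, with 1 bar per library (OSA 1, 2 and 3, then control 2). Fibroblast bars reach between 1.08% and 1.31% in the OSA libraries and 0.841% in the control library, and the tenocyte bars are the tallest.

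Within each class, the OSA libraries were compared with the control library by edgeR's quasi-likelihood test on the summed counts, with Benjamini-Hochberg adjustment over all genes tested in the class. Values in these comparisons are CPM scaled by TMM, edgeR's correction for library composition. The lone control library was assumed to vary like the OSA libraries, which leaves 2 residual degrees of freedom. A gene is said to have risen or fallen only at an adjusted p under 0.05. The filter on low counts was passed by between 16 and 40 of the 42 genes, depending on the class.

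In fibroblasts the major fibrillar chains were higher in every OSA library, but no collagen gene passed the test. Of 40 genes tested, 24 had a positive log2 change, and 17 had all 3 OSA libraries above the control library and 9 had all of them below. Among all 16716 genes of that test, 24.4% had every OSA library above the control library and 24.7% below. The median log2 change of the collagen genes was 0.19, and that of all genes tested was 0.02. The edgeR test called 0% of all genes in fibroblasts, so it called 0 collagen genes, and DESeq2 called 0 as well, while 4 collagen genes with a positive and 4 with a negative change had an unadjusted p under 0.05. The fibroblast results that follow are therefore values, not calls.

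Col1a1 had 1934, 1752 and 3774 scaled CPM in OSA 1, 2 and 3 fibroblasts and 1187 in those of control 2. OSA 3 stood above the other OSA libraries, and the groups did not overlap. Its log2 change was 1.07 ± 0.46 (SE). Col1a2 had 2001, 1860 and 2909 in OSA and 1404 in control fibroblasts, a log2 change of 0.69 ± 0.35. Col3a1 had 2003, 1583 and 2579 in OSA and 1134 in control fibroblasts, a log2 change of 0.86 ± 0.35. All 3 chains of interstitial fibrils thus had the control library as the lowest. In the single clusters Col1a1 had 1488, 1741 and 2259 in OSA and 1228 in control cells of cluster 10 (0.58 ± 0.30), and 1704, 1625 and 1739 in OSA and 1171 in control cells of cluster 12 (0.53 ± 0.29).

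The fibrillar family as a whole leaned the same way in fibroblasts. Of its 11 chains, 10 had a positive change and 9 had every OSA library above the control library, with a median log2 change of 0.38. Col5a1, which helps start type I fibrils, had 200, 231 and 342 scaled CPM in OSA and 196 in control fibroblasts. Col5a2 had 297, 276 and 290 in OSA and 255 in control fibroblasts, and the control library was the lowest for both. Col5a3, the remaining type V chain, had 122, 167 and 216 in OSA and 141 in control fibroblasts, so the control library lay inside the OSA range. Col24a1, a bone-associated fibrillar chain, was near the limit of counting, with 1.65, 1.81 and 3.31 scaled CPM in OSA and 0.443 in control fibroblasts. Col2a1 was the exception, at 0.276, 0.361 and 0.413 in OSA and 1.08 in control fibroblasts.

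The basement membrane chains of fibroblasts were split. Col4a1 had 644, 956 and 626 scaled CPM in OSA and 647 in control fibroblasts, and Col4a2 had 693, 951 and 730 in OSA and 676 in control fibroblasts, with OSA 2 the highest for both. Col4a5 had 23.3, 17.6 and 13.6 in OSA and 31.9 in control fibroblasts, a log2 change of -0.82 ± 0.29. Col4a4 (15.5, 14.5 and 8.30 OSA, 18.0 control) and Col4a3 (10.53, 9.62 and 4.09 OSA, 13.1 control) also had every OSA library below the control library. The median log2 change of the 6 type IV chains was -0.57.

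Type VI and the fibril-associated chains showed both directions in fibroblasts. Col6a1 had 548, 597 and 583 scaled CPM in OSA and 509 in control fibroblasts, a log2 change of 0.18 ± 0.27. Col6a2 had 593, 776 and 842 in OSA and 642 in control fibroblasts, and Col6a3 had 222, 288 and 240 in OSA and 211 in control fibroblasts. Col6a6, a chain that can stand in for Col6a3, had 30.4, 26.7 and 20.7 in OSA and 39.3 in control fibroblasts (-0.60 ± 0.26). Among the fibril-associated chains, Col12a1 had 71.3, 86.0 and 94.7 in OSA and 53.6 in control fibroblasts (0.65 ± 0.25). Col16a1 had 34.5, 30.1 and 59.5 in OSA and 22.1 in control fibroblasts (0.91 ± 0.40). Col14a1 (490, 357 and 453 OSA, 413 control) and Col15a1 (281, 336 and 203 OSA, 259 control) had the control library inside the OSA range.

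The 1 call within a fibroblast cluster was of a minor chain. Col26a1, a collagen-like chain first known from testis and ovary, fell in cluster 12, with 0.885, 0.470 and 0.856 scaled CPM in OSA and 4.84 in control cells, a log2 change of -2.72 ± 0.55 (edgeR, adjusted p = 0.013). In that cluster 0.0463% of the 15113 genes tested fell. Without OSA 3 the call was lost. In cluster 10 edgeR called 0 of 34 collagen genes and 0.0272% of 14715 genes, while 3 with a positive and 4 with a negative change had an unadjusted p under 0.05.

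**Figure D3:**
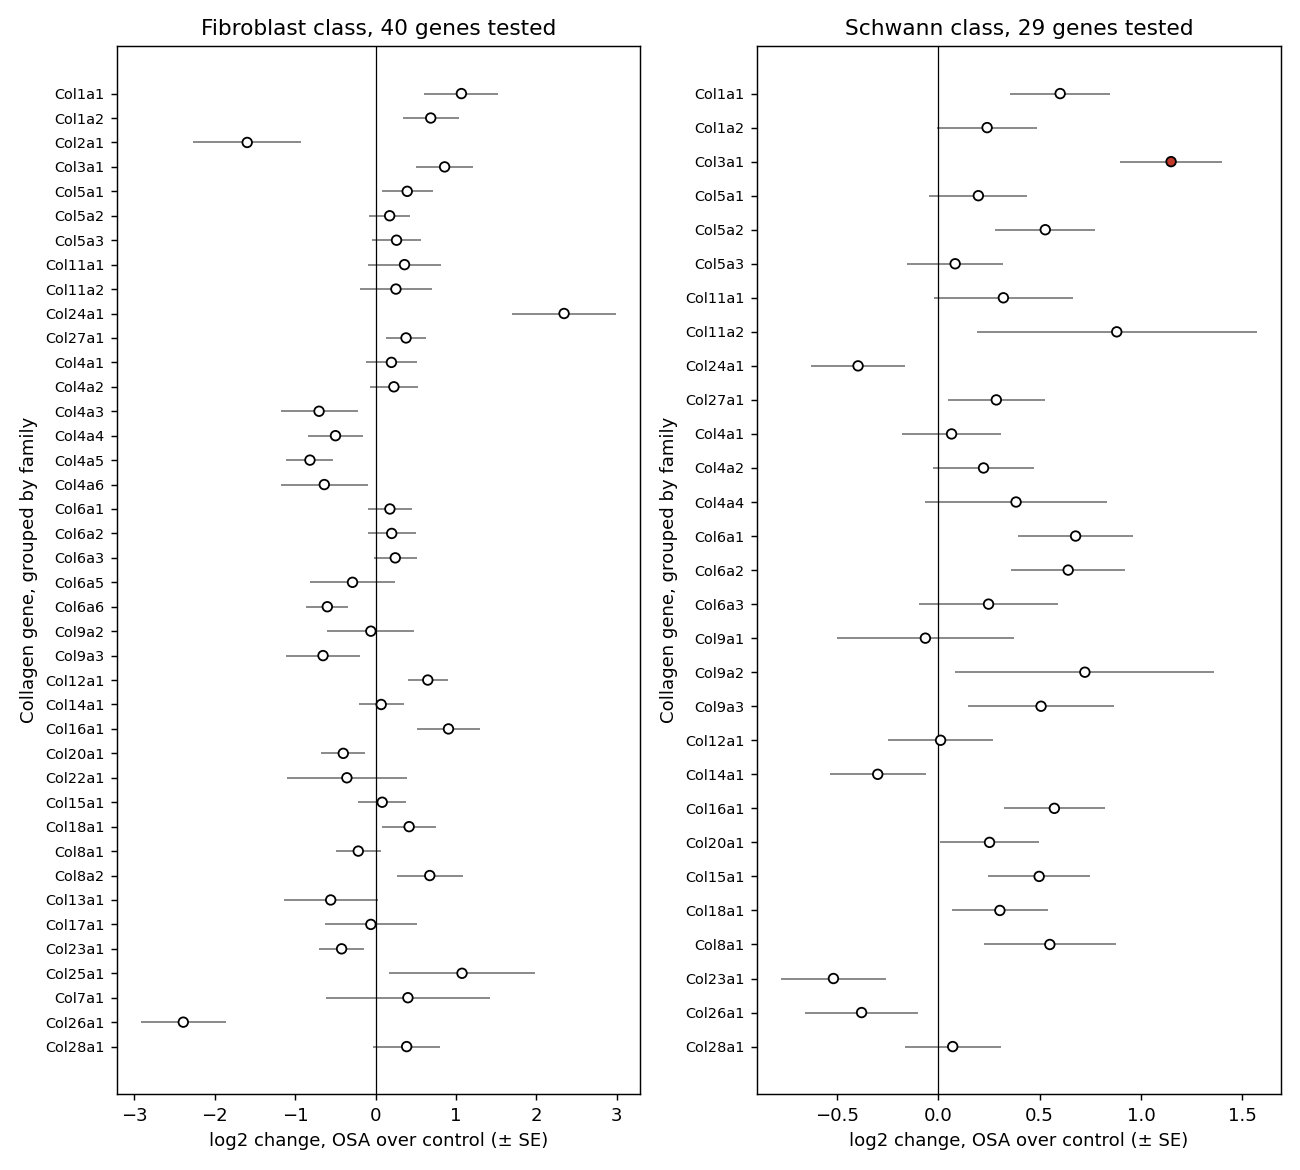
Log2 change (OSA over control, ± SE) of each collagen gene tested in fibroblasts (40 genes, left) and in Schwann cells (29 genes, right), grouped by family. The only filled point, for a gene that passed the test, is Col3a1 in Schwann cells at 1.15, and most fibrillar chains lie right of 0 in both panels.

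When the fibroblast class was limited to clusters with at most a 0.5 share of their cells from 1 library, 40 collagen genes were still tested, and 21 had a positive and 19 a negative change. The median log2 change was then 0.05, and 12 genes had every OSA library above the control library (23.8% of all genes tested) and 10 below it (23.9%). The setting was chosen after the clusters were seen.

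Tenocytes showed the same ordering for type I collagen without passing the test. Col1a1 had 6403, 8097 and 8642 scaled CPM in OSA and 5487 in control tenocytes (0.49 ± 0.31), and Col1a2 had 4709, 5955 and 5585 in OSA and 3739 in control tenocytes (0.53 ± 0.31). Col3a1 had 961, 621 and 923 in OSA and 594 in control tenocytes, with OSA 2 close to the control library. Col6a2 had 501, 628 and 720 in OSA and 419 in control tenocytes (0.56 ± 0.29), and Col15a1 had 83.4, 66.4 and 80.4 in OSA and 50.4 in control tenocytes (0.60 ± 0.29). Col5a1 (117, 84.0 and 142 OSA, 114 control), Col5a2 (293, 283 and 243 OSA, 275 control) and Col6a3 (181, 144 and 169 OSA, 164 control) had the control library inside the OSA range. Col6a1 had 546, 567 and 598 in OSA and 416 in control tenocytes. Col5a3 (63.2, 51.7 and 57.2 OSA, 68.8 control) and the low Col6a6 (2.05, 2.52 and 0.684 OSA, 6.52 control) had every OSA library below the control library. Of the 3 type IV chains tested in tenocytes, 2 had every OSA library above the control library and 1 had every OSA library below it. Col4a2 had 579, 765 and 690 in OSA and 477 in control tenocytes. UMIs of Col4a1 per UMI of Col4a2 were 0.69, 0.80 and 0.66 in OSA and 0.77 in control tenocytes. Among the chains highest in tenocytes, every OSA library lay below the control library for Col11a1 (345, 331 and 287 OSA, 366 control), Col22a1 (68.2, 65.9 and 74.95 OSA, 83.0 control) and Col13a1 (82.8, 71.7 and 78.4 OSA, 102 control). Other chains highest there did not share this order. Of the 11 fibrillar chains, 3 had every OSA library above the control library and 2 below, and Col2a1 was in neither set. Col8a1 and Col8a2 both had a positive change, with the control library inside the OSA range. The edgeR test called 0 of the 32 collagen genes tested and DESeq2 called 0, while 0.0237% of the 12664 genes were called. One gene in each direction had an unadjusted p under 0.05, all 3 OSA libraries were above the control library for 11 genes (25.7% of all genes tested) and below it for 8 (27.1%).

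Mural cells, the pericytes and smooth muscle of vessels, had the control library inside the OSA range for the main type IV chains. Col4a1 had 454, 497 and 515 scaled CPM in OSA and 487 in control mural cells, and Col4a2 had 701, 729 and 911 in OSA and 728 in control mural cells. The minor chain Col4a5 had 65.3, 62.7 and 53.4 in OSA and 70.9 in control mural cells, so every OSA library lay below the control library, and Col4a6 had 33.1, 27.5 and 20.5 in OSA and 33.1 in control mural cells. Col3a1 had 241, 240 and 476 in OSA and 159 in control mural cells (1.00 ± 0.47, edgeR, adjusted p = 0.859), and Col1a1 had 191, 212 and 536 in OSA and 138 in control mural cells (1.17 ± 0.99). The OSA 3 value was the highest for both. Col12a1 had 15.9, 32.6 and 23.7 in OSA and 12.1 in control mural cells (0.97 ± 0.35). Col1a2 had 213, 239 and 431 in OSA and 177 in control mural cells, Col5a1 31.9, 41.5 and 59.9 in OSA and 27.5 in control mural cells, and Col6a2 117, 159 and 235 in OSA and 105 in control mural cells. Col5a2 (67.2, 82.8 and 71.3 OSA, 62.8 control), Col6a1 (116, 127 and 159 OSA, 98.6 control) and Col15a1 (41.4, 54.7 and 46.9 OSA, 35.2 control) also had the control library lowest, and Col6a3 (67.2, 79.2 and 82.1 OSA, 76.2 control) did not. Every OSA library was above the control library for 15 collagen genes (25.3% of all genes tested) and below it for 4 (25.2%). Of 30 collagen genes tested, edgeR and DESeq2 called 0, 3 with a positive and 1 with a negative change had an unadjusted p under 0.05, and edgeR called 0.0289% of all genes. In mural cluster 19 alone, Col6a6 fell, with 23.7, 15.7 and 19.2 scaled CPM in OSA and 63.7 in control cells (-1.69 ± 0.33, edgeR, adjusted p = 0.015), where 0.0465% of the genes tested fell.

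Endothelial cells, the main source of type IV collagen, had nearly the same Col4a1 and Col4a2 in both groups. Col4a1 had 1176, 1410 and 1371 scaled CPM in OSA and 1311 in control endothelium (0.01 ± 0.23), and Col4a2 had 1575, 1980 and 2147 in OSA and 1845 in control endothelium (0.04 ± 0.26). The interstitial chains were low and higher in every OSA library. Col3a1 had 51.7, 55.5 and 98.5 in OSA and 25.9 in control endothelium (1.40 ± 0.42, edgeR, adjusted p = 0.95). Col1a1 had 69.2, 88.8 and 155 in OSA and 34.5 in control endothelium, and Col1a2 had 54.2, 74.99 and 106 in OSA and 31.7 in control endothelium. The edgeR test called 0 of 37 collagen genes and 0% of all genes tested. In that test 5 collagen genes, all with a positive change, had an unadjusted p under 0.05. DESeq2 called 2 (Col3a1 and Col1a2), where 34 of 13836 genes rose and 5 fell. Every OSA library was above the control library for 18 collagen genes (26.4% of all genes tested) and below it for 5 (26.8%). Without OSA 1, 6 collagen genes rose, in a test where 235 of 16161 genes rose and 86 fell. Without OSA 3, 5 collagen genes rose, where 292 of 16266 genes rose and 139 fell. Type VI chains were also low there, with Col6a1 at 21.9, 31.3 and 33.6 in OSA and 16.6 in control endothelium, Col6a2 at 21.98, 37.3 and 47.2 in OSA and 19.4 in control endothelium, and Col6a3 at 7.42, 10.2 and 10.2 in OSA and 6.80 in control endothelium. Col5a1 had 6.61, 10.0 and 16.8 in OSA and 6.24 in control endothelium, and Col5a2 had 10.3, 10.4 and 14.6 in OSA and 8.88 in control endothelium. The control library was the lowest for each of these 5 chains. Col28a1 had 30.9, 32.4 and 32.5 in OSA and 22.4 in control endothelium (0.51 ± 0.17), and Col15a1 had 72.3, 76.2 and 91.7 in OSA and 63.6 in control endothelium (0.33 ± 0.18).

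Fibroblast markers were also higher in the OSA libraries in endothelium, though edgeR called 0 of the 13 there. The 13 markers on the fibroblast list, which hold the proteoglycan genes Dcn and Lum, were all detected there, with none at 0, and summed to 807, 953 and 1183 CPM in the OSA libraries and 687 CPM in the control library. In mural cells the sum was 2177, 2275 and 3049 CPM in OSA and 1807 CPM in control. Col3a1 in endothelium was 2.56%, 3.47% and 3.88% of its fibroblast level in OSA 1, 2 and 3 and 2.30% in control 2, and Dcn was 2.42%, 3.55% and 4.10% in OSA and 2.05% in control. The part of fibroblast RNA in the endothelial and mural values was not tested.

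In Schwann cells Col3a1 rose. It had 206, 117 and 246 scaled CPM in OSA 1, 2 and 3 and 85.5 in control 2, so every OSA library was above the control library and OSA 2 was the nearest to it. Its log2 change was 1.15 ± 0.25 (edgeR, adjusted p = 0.0052, higher in 3 of 3 OSA libraries). It was the only 1 of 29 collagen genes called there, in a test where 0.182% of 12624 genes rose. DESeq2 did not call it, and edgeR lost the call without OSA 1 (adjusted p = 0.131) or without OSA 3 (adjusted p = 1.00), and kept it without OSA 2. In cluster 8 alone it rose as well, with 88.3, 75.05 and 153 scaled CPM in OSA and 40.0 in control cells (1.36 ± 0.27, edgeR, adjusted p = 0.0010), where 0.261% of the genes tested rose. In cluster 21 it had 471, 179 and 414 in OSA and 191 in control cells, and the groups overlapped.

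The fibroblast marker sum in Schwann cells did not separate the groups. It was 1799, 1402 and 2072 CPM in the OSA libraries and 1759 CPM in the control library, with all 13 markers detected and 2 of 13 higher in every OSA library. For each 100 UMIs of Dcn, Schwann cells held 49.2, 51.2 and 61.2 UMIs of Col3a1 in OSA 1, 2 and 3 and 22.6 in control 2. The same ratio was 21.4, 23.7 and 34.1 in OSA and 13.2 in control fibroblasts, and 22.6, 23.1 and 32.3 in OSA and 14.8 in control endothelium, so it was higher in every OSA library in these classes too. It was also higher in every OSA library in mural cells, macrophages and neutrophils. The groups overlapped in T and NK cells (19.3, 8.89 and 28.4 OSA, 8.99 control) and lymphatic endothelial cells (25.8, 16.86 and 28.4 OSA, 16.88 control). They also overlapped in satellite cells and tenocytes. Col3a1 in Schwann cells was 9.94%, 7.38% and 9.85% of its fibroblast level in OSA 1, 2 and 3 and 7.42% in control 2, and the groups overlapped. The part of fibroblast RNA in the Schwann result was not tested beyond these values. The other chains of Schwann cells were not called. Col1a1 had 327, 261 and 395 scaled CPM in OSA and 216 in control Schwann cells (0.60 ± 0.25, edgeR, adjusted p = 0.897). Col6a1 had 48.4, 36.3 and 62.0 in OSA and 30.3 in control Schwann cells (0.68 ± 0.28), and Col6a2 had 37.4, 46.9 and 70.7 in OSA and 31.9 in control Schwann cells. Every OSA library was above the control library for these 3 chains. Col1a2 had 452, 444 and 540 in OSA and 404 in control Schwann cells, and Col20a1 had 213, 406 and 369 in OSA and 274 in control Schwann cells. Type IV collagen lines their basement membrane, and Col4a2 had 517, 562 and 590 in OSA and 476 in control Schwann cells, while Col4a1 had 422, 454 and 393 in OSA and 404 in control Schwann cells. Col5a1 had 71.0, 77.6 and 86.4 in OSA and 67.6 in control Schwann cells, Col5a2 109, 98.3 and 104 in OSA and 72.0 in control Schwann cells, and Col15a1 78.7, 69.5 and 69.1 in OSA and 51.7 in control Schwann cells. These 3 had the control library lowest, and Col6a3 (19.6, 11.9 and 25.9 OSA, 16.0 control) did not. Col24a1, higher in cluster 8 than in cluster 21, had 101, 103 and 104 in OSA and 134 in control Schwann cells (-0.39 ± 0.23). All OSA libraries were above the control library for 17 genes and below it for 3, against 21.8% and 22.1% of all genes tested, and 7 genes with a positive and 1 with a negative change had an unadjusted p under 0.05.

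**Figure D4:**
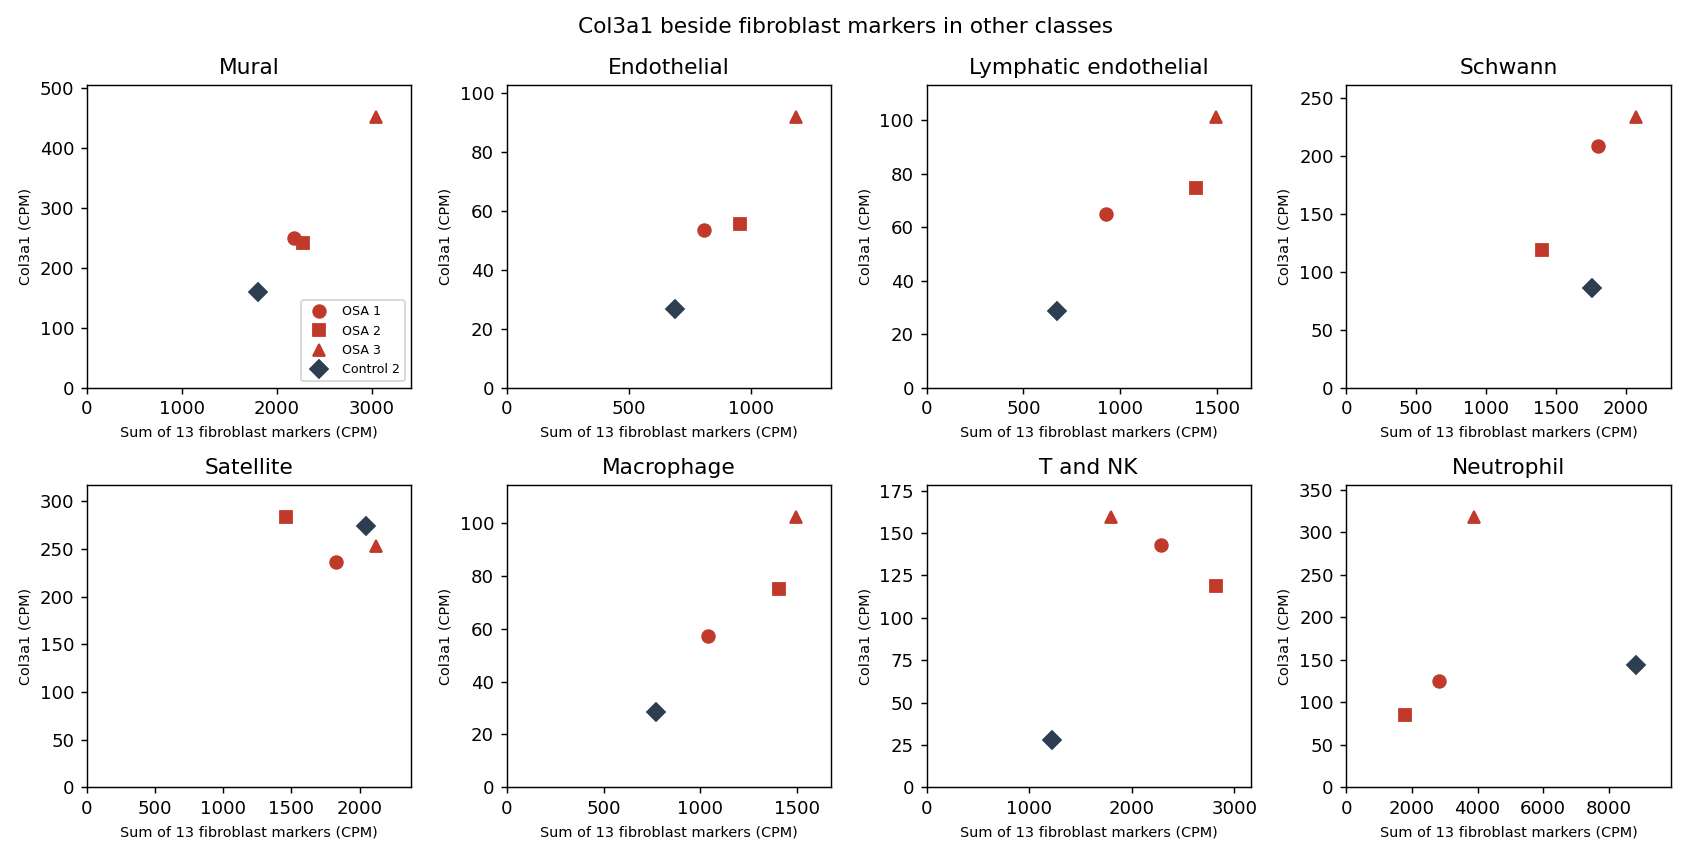
Col3a1 (CPM, vertical axis) against the summed CPM of 13 fibroblast markers (horizontal axis) in 8 classes, with 1 point per library and axes from 0. In Schwann cells the marker sum of control 2, at 1759 CPM, lies inside the OSA range, while in endothelium, at 687 CPM, it lies below all OSA libraries.

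In lymphatic endothelial cells, which line the vessels that drain tissue fluid, Col1a2 and Col3a1 rose. Col1a2 had 55.6, 106 and 133 scaled CPM in OSA and 24.3 in control cells, a log2 change of 2.03 ± 0.42 (edgeR, adjusted p = 0.0084). Col3a1 had 64.9, 74.8 and 108 in OSA and 28.7 in control cells, a log2 change of 1.55 ± 0.37 (edgeR, adjusted p = 0.024). The control library lay below all OSA libraries for both. The counts were small, with 22 UMIs of Col1a2 and 26 of Col3a1 in the control library. Col1a1 had 73.1, 98.0 and 156 in OSA and 40.9 in control cells (1.44 ± 0.36, edgeR, adjusted p = 0.055). In this class 2 of 18 collagen genes rose, where 0.143% of 9775 genes rose, and 12 had every OSA library above the control library (26% of all genes tested). DESeq2 called 0 of them, and edgeR called 0 without OSA 3. Without OSA 1 edgeR called 4 collagen genes, in a test where 89 of 9510 genes rose and 61 fell. Without OSA 2 only Col1a2 was called, where 20 of 9673 genes rose. The fibroblast markers were also higher in the OSA libraries. All 13 were detected, edgeR called 0 of the 12 tested, 10 of the 12 were higher in every OSA library, and their sum was 924, 1390 and 1493 CPM in the OSA libraries and 672 CPM in the control library. Their part in the result was not tested. Col18a1 had 236, 333 and 413 scaled CPM in OSA and 313 in control cells, and Col4a1 had 335, 530 and 435 in OSA and 358 in control cells. The control library lay inside the OSA range for both. Col23a1 had 65.9, 54.1 and 51.8 in OSA and 85.1 in control cells, and every OSA library lay below the control library.

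In T and NK cells Col3a1 rose, with 142, 118 and 168 scaled CPM in OSA and 30.2 in control cells, a log2 change of 2.24 ± 0.42 (edgeR, adjusted p = 0.000142). The counts were 75, 65 and 120 UMIs in OSA 1, 2 and 3 and 16 in control 2. Every OSA library was above the control library, and the call held in each of the 11 alternatives run, DESeq2 among them. It was 1 of 16 collagen genes tested, where 1.13% of 8052 genes rose. Col1a1 had 148, 465 and 386 in OSA and 47.2 in control cells (2.81 ± 1.07, edgeR, adjusted p = 0.587), and the gap between OSA 1 and the other OSA libraries was wide. Col1a2 had 129, 428 and 249 in OSA and 81.3 in control cells, with the same order. The type IV chains had the control library inside the OSA range, as Col4a1 had 294, 259 and 138 in OSA and 142 in control cells and Col4a2 had 358, 272 and 184 in OSA and 214 in control cells. Every OSA library was above the control library for 12 of the 16 genes (29% of all genes tested). Lymphocytes are not known as makers of fibrillar collagen. Dcn in this class was 7.56%, 19.7% and 8.06% of its fibroblast level in OSA 1, 2 and 3 and 3.49% in the control library. Col3a1 was 6.82%, 7.41% and 6.73% of its fibroblast level in OSA 1, 2 and 3 and 2.38% in the control library. On this measure OSA 2 was thus the highest for both genes, though its Col3a1 in scaled CPM was the lowest of the OSA libraries. The 13 fibroblast markers were all detected and summed to 2282, 2822 and 1802 CPM in OSA and 1225 CPM in control cells, edgeR called 0 of them, and their part in the result was not tested. Other matrix genes rose there too, among them Sparc (859, 1276 and 940 scaled CPM in OSA and 344 in control cells, 1.57 ± 0.28), which binds collagen outside the cell.

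Macrophages held little collagen RNA, as the collagen genes made up 0.063%, 0.085% and 0.079% of UMIs in OSA and 0.054% in control cells. In neutrophils they made up 0.118%, 0.111% and 0.211% in OSA and 0.182% in control cells. In macrophages Col3a1 had 56.3, 70.5 and 115 scaled CPM in OSA and 27.5 in control cells (1.56 ± 0.46, edgeR, adjusted p = 0.191), and Col1a2 had 61.1, 91.1 and 129 in OSA and 36.0 in control cells. Col1a1 had 75.5, 112 and 191 in OSA and 45.5 in control cells. The control library was the lowest in these 3 chains and inside the OSA range for Col4a1 (117, 137 and 92.0 OSA, 121 control) and Col4a2 (134, 159 and 122 OSA, 124 control). Of 25 collagen genes edgeR called 0, with 0.695% of 13235 genes called. In that test 5 with a positive and 3 with a negative change had an unadjusted p under 0.05. DESeq2 called 1 collagen gene (Col3a1), where 159 of 9899 genes rose and 146 fell. The fibroblast markers summed to 1038, 1405 and 1494 CPM in the OSA libraries and 769 CPM in the control library, so their sum was also higher in every OSA library. In neutrophils the control library held 8 UMIs of Col1a1, 14 of Col3a1 and 20 of Col15a1, and the fibroblast marker sum was 2825, 1787 and 3889 CPM in the OSA libraries and 8825 CPM in the control library. Col15a1 had 51.0, 24.8 and 62.2 scaled CPM in OSA and 178 in control neutrophils, Col5a3 17.0, 14.0 and 17.0 in OSA and 44.5 in control neutrophils, and Col1a1 142, 258 and 407 in OSA and 71.2 in control neutrophils. Col4a2 (276, 206 and 381 OSA, 303 control), Col4a1 (244, 156 and 235 OSA, 205 control) and Col1a2 (99.8, 220 and 337 OSA, 151 control) had the control library inside the OSA range. Of 16 collagen genes edgeR and DESeq2 called 0 there, with 1 in each direction at an unadjusted p under 0.05 and 0% of 7130 genes called.

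In satellite cells the collagen chains did not lean to the OSA side. Col15a1, which bridges the muscle basement membrane and the fibres around it, had 85.5, 94.6 and 55.5 scaled CPM in OSA and 170 in control satellite cells, a log2 change of -1.10 ± 0.26 (edgeR, adjusted p = 0.136). All OSA libraries lay below the control library, and edgeR called the difference without OSA 1 (adjusted p = 0.0101) or without OSA 2 (adjusted p = 0.00093), and not without OSA 3. Col6a1 had 111, 123 and 121 in OSA and 161 in control satellite cells (-0.45 ± 0.23). Col4a1 had 316, 556 and 354 in OSA and 456 in control satellite cells, and Col4a2 had 275, 492 and 343 in OSA and 390 in control satellite cells, so the control library lay inside the OSA range for both. Col3a1 had 225, 282 and 275 in OSA and 275 in control satellite cells. Col19a1 had 53.2, 53.6 and 30.2 in OSA and 32.9 in control satellite cells. Col1a1 (106, 95.7 and 172 OSA, 99.2 control) and Col1a2 (116, 90.8 and 128 OSA, 102 control) also had the control library inside the OSA range, as did Col5a2 (69.8, 82.0 and 53.6 OSA, 77.1 control) and Col6a2 (70.2, 91.3 and 104 OSA, 86.6 control). Col5a1 (49.3, 54.7 and 69.0 OSA, 72.3 control) and Col14a1 (18.8, 12.6 and 30.8 OSA, 32.3 control) lay below the control library in every OSA library, and Col8a1 (41.9, 105 and 50.5 OSA, 34.1 control) and Col6a3 (15.7, 10.4 and 14.8 OSA, 8.36 control) above it. Of 22 collagen genes edgeR and DESeq2 called 0, with 0.0636% of 11005 genes called, and 1 gene, with a negative change, had an unadjusted p under 0.05. Every OSA library was above the control library for 3 genes (27.1% of all genes tested) and below it for 7 (25.7%). The fibroblast markers summed to 1826, 1460 and 2123 CPM in OSA and 2050 CPM in control satellite cells.

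**Figure D5:**
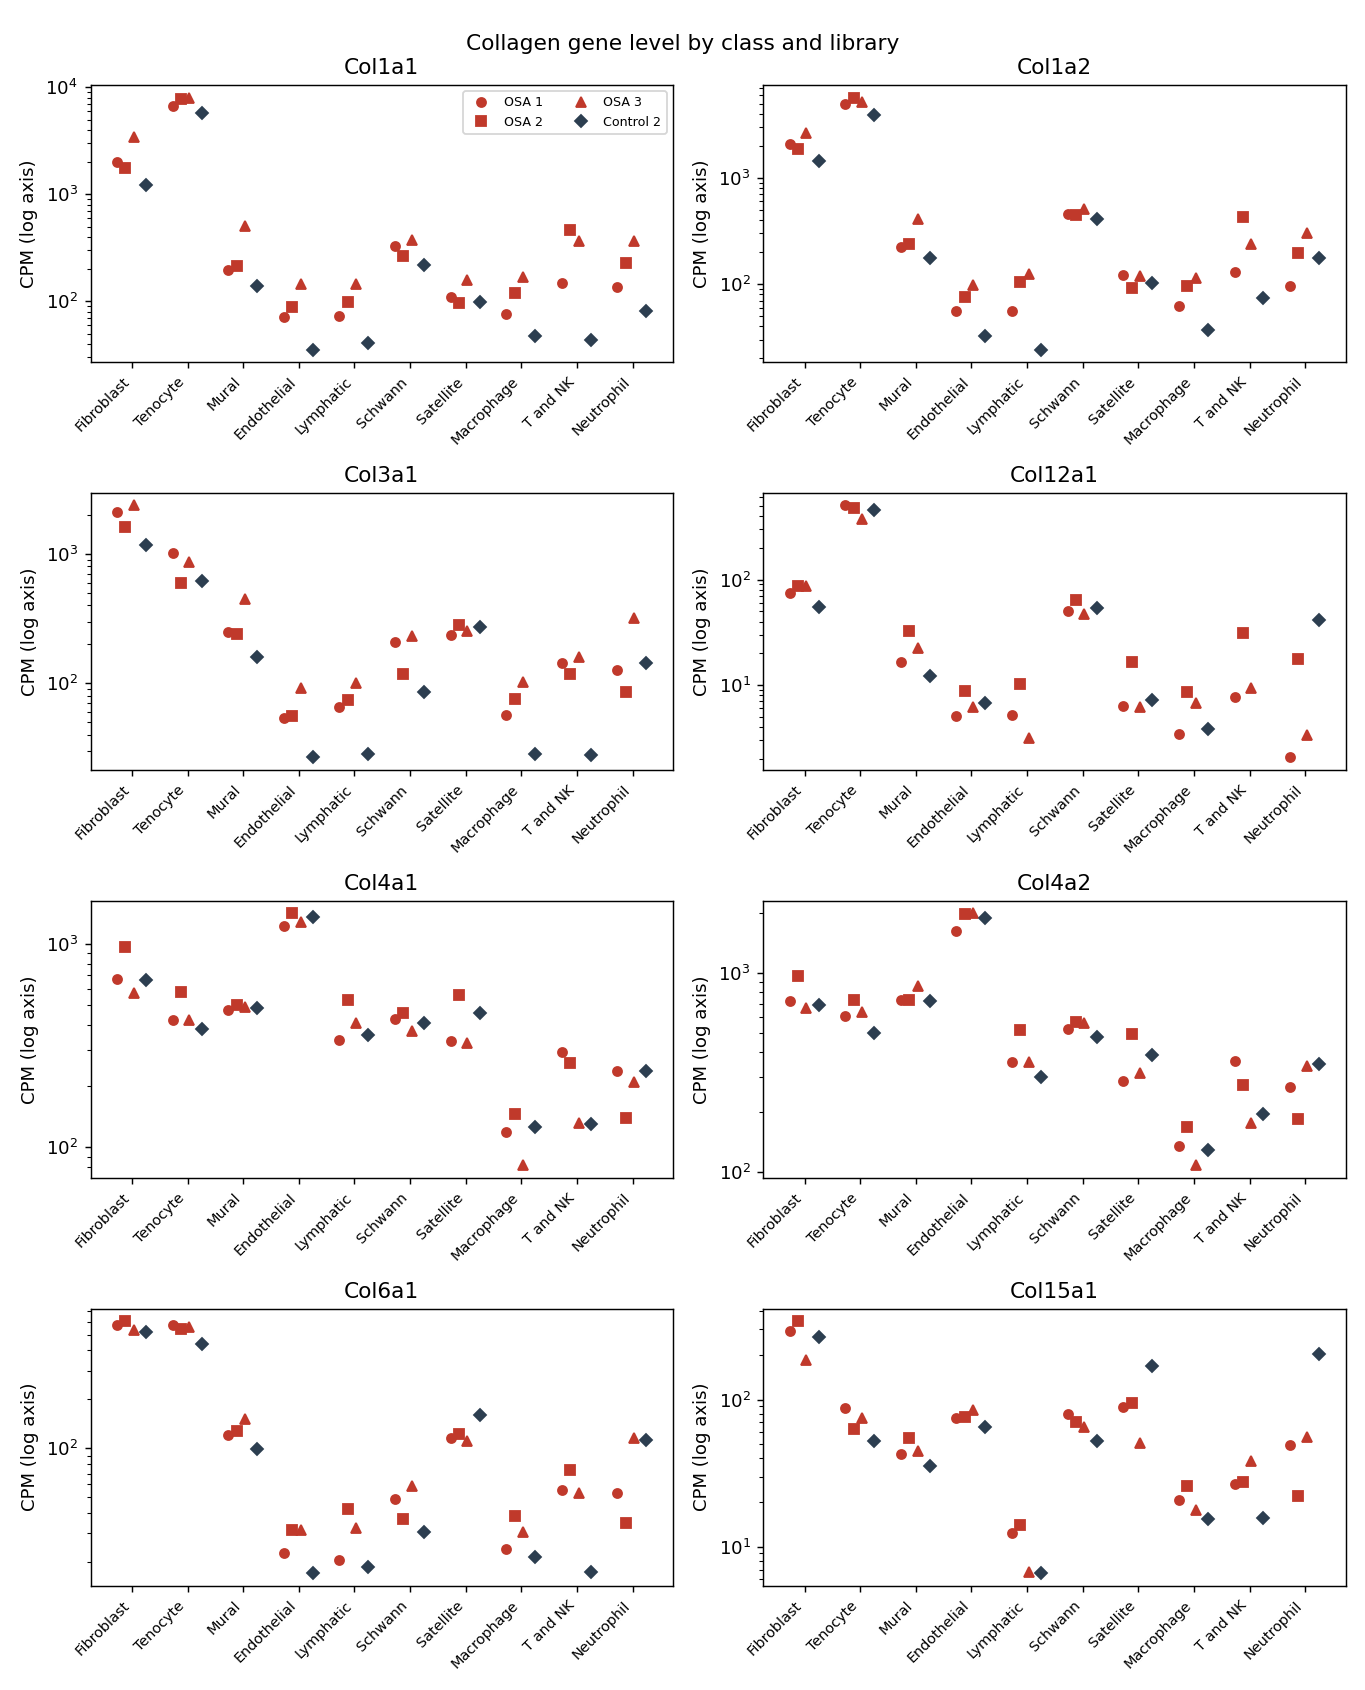
CPM on a log axis of 8 collagen genes in 10 classes, with 1 point per library (OSA 1, 2 and 3 in red, control 2 in dark blue). Col1a1, Col1a2 and Col3a1 have the control point lowest in fibroblasts, while Col4a1 and Col4a2 in endothelium, at 1315 and 1880 CPM on average, have it among the OSA points. Values of 0 are not drawn (Col12a1 of the control library in lymphatic endothelial and in T and NK cells).

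Whether fibroblasts moved differently from other classes was tested on the difference of log2 CPM between the 2 classes of a library, with limma and Benjamini-Hochberg adjustment over all genes of the pair. Against endothelial cells 0 of 37 collagen genes differed in their change, against tenocytes 0 of 32, against mural cells 0 of 29 and against Schwann cells 0 of 28. The lowest adjusted p of limma was 0.581 for endothelial cells, 0.299 for tenocytes, 0.383 for mural cells and 0.896 for Schwann cells. Among all genes 0.0635% differed against tenocytes and 0% against each of the other classes. At an unadjusted p under 0.05 there were 9 collagen genes against endothelial cells, 11 against tenocytes, 5 against mural cells and 5 against Schwann cells. Without OSA 2, 6 differed against tenocytes, and without OSA 1, 1 differed against Schwann cells. The share of all genes that differed in those runs is not given, so these counts cannot be read as particular to collagen genes.

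The balance of chains that join in the same molecule was read as UMIs of one chain per UMI of its partner. UMIs of Col1a1 per UMI of Col1a2 were 1.36, 1.36 and 1.55 in OSA tenocytes and 1.47 in control tenocytes, and 0.72, 0.59 and 0.73 in OSA Schwann cells and 0.53 in control Schwann cells. In fibroblasts they were 0.97, 0.94 and 1.30 in OSA and 0.85 in control (exact permutation test over libraries, two-sided, p = 0.50; with 3 libraries against 1 the smallest possible p is 0.25). Col4a1 per Col4a2, the pair with the shared start region, was 0.75, 0.71 and 0.64 in OSA and 0.71 in control endothelium, 0.65, 0.68 and 0.57 in OSA and 0.67 in control mural cells, and 1.15, 1.13 and 1.03 in OSA and 1.17 in control satellite cells. Col6a1 per Col6a2 was 1.58, 1.34 and 1.16 in OSA and 1.86 in control satellite cells (exact permutation test, two-sided, p = 0.25, the smallest that 3 libraries against 1 can give).

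The genes that fold, cut and bind collagen were described from 5 lists, whose members are not collagen chains. In fibroblasts, 17 of 20 genes of procollagen folding and modification had a positive change (median log2 change 0.26), 8 of 14 genes of propeptide removal and crosslinking (0.23), 7 of 10 fibril-binding small proteoglycans (0.44), 11 of 15 tested basement membrane partners (0.12) and 6 of 10 tested receptors (0.18), beside a median of 0.02 over all genes. edgeR called 0 of the 69 list genes tested there, and 2, both with a positive change, had an unadjusted p under 0.05. Dcn and Lum stand on the proteoglycan list and on the fibroblast marker list. Serpinh1, the collagen chaperone also known as HSP47, had 840, 1121 and 1564 scaled CPM in OSA and 657 in control fibroblasts (0.84 ± 0.36). Sparc had 4962, 4382 and 8030 in OSA and 3668 in control fibroblasts (0.66 ± 0.40). Both had the control library as the lowest. Dcn, which coats fibrils, had 9352, 6688 and 7572 in OSA and 8617 in control fibroblasts, so the control library lay inside the OSA range. Bgn, its close relative, had 1726, 1708 and 3016 in OSA and 1359 in control fibroblasts.

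Outside fibroblasts the lists held 7 calls, all in lymphatic endothelial and in T and NK cells. In lymphatic endothelial cells 1 of 46 list genes tested rose, where 0.143% of all genes rose. In T and NK cells 5 of 39 rose and 1 fell, where 1.13% of all genes rose and 0.82% fell. In lymphatic endothelial cells Pcolce, an enhancer of propeptide removal, rose, with 39.1, 63.2 and 57.9 scaled CPM in OSA and 14.4 in control cells (1.89 ± 0.45, edgeR, adjusted p = 0.019). In T and NK cells Serpinh1, Sparc, Prelp, Lamc1 and Cd44 rose and Adamts14 fell. Serpinh1 had 106, 197 and 162 in OSA and 58.6 in control cells (1.40 ± 0.37, edgeR, adjusted p = 0.020). Prelp, a fibril-binding proteoglycan, had 22.8, 65.6 and 50.3 in OSA and 1.89 in control cells. Lamc1, a laminin chain of basement membranes, had 133, 139 and 141 in OSA and 51.0 in control cells, and Cd44, a receptor for hyaluronan, had 205, 210 and 267 in OSA and 92.6 in control cells. Adamts14, a procollagen protease, had 20.9, 23.7 and 15.4 in OSA and 83.1 in control cells (-2.06 ± 0.44).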

How the data were processed

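The deposited files are gene-by-barcode count matrices of whole-number UMI counts, which the authors made with Cell Ranger 9.0.1, per the file headers, on builds GRCm39 and mm39, per the submitters' processing notes. No normalization had been applied. Matrices of OSA 1, 2 and 3 and of control 2 were used; controls 1 and 3 are not analysed here, and the labels give no other batch than batch 1.

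Barcodes with at least 500 UMIs, at least 300 genes and at most 20% mitochondrial UMIs were kept, and doublets were called with Scrublet in scanpy 1.11.5 (expected rate 0.1): 513, 378 and 575 calls in OSA 1, 2 and 3 and 456 in control 2 were left out. Counts were scaled to 10000 per cell and logged, and 2000 variable genes, 30 principal components, 15 neighbours and Leiden clustering at resolution 1 gave the clusters, with all collagen genes removed beforehand. Of 21 marker lists, the one with the most markers at 3-fold over the other clusters and in 10% of cells named a cluster, given at least 3 such markers. Clusters with markers of another class, low UMI counts or too few markers stayed unnamed (16.9%, 17.2% and 15.6% of the kept cells in the OSA libraries and 18.0% in the control library).

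Raw counts were summed per library and class, for classes with at least 30 cells in every library, and tested with edgeR 4.0.16 (robust quasi-likelihood fit, TMM, filterByExpr, Benjamini-Hochberg over all genes of the class) in R 4.3.3. Differences between classes were tested with limma 3.58.1 on log2 CPM (prior count 2). The edgeR step alone was tried on simulated counts, modelled on the fibroblast class. The alternatives were DESeq2 1.42.0, other scaling and count filters, thinning, kept doublets, other clusterings and leaving out each OSA library. Pairs of libraries differed in their counts by a chi-square of between 43.6 and 260 per degree of freedom, so none was a copy of another.

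The genes named in each class are those called, the 4 with the highest mean CPM, the 3 with the largest change above a mean of 20 CPM, and 11 major chains as values in 6 classes. The collagen genes, marker lists and gene lists were chosen with earlier results of these data known.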

Additional observations from a re-analysis of the deposited data

Results flagged for a closer look

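Col15a1, which joins basement membranes to the fibres around them, had opposite directions in different classes. Its log2 change (OSA over control, edgeR's fit) was -1.10 in satellite cells and -1.99 in neutrophils, where every OSA library lay below the control library. It was 0.60 in tenocytes and 0.33 in endothelial cells, where every OSA library lay above the control library. Mural and Schwann cells also had every OSA library above the control library, and fibroblasts had the control library inside the OSA range. The control value in neutrophils rests on 20 UMIs. The 13 fibroblast markers in neutrophils summed to 2825, 1787 and 3889 CPM in OSA 1, 2 and 3 and to 8825 CPM in control 2.

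Col6a1, a chain of the beaded filaments of type VI collagen, had a log2 change of -0.45 in satellite cells and of 0.68 in Schwann cells, again with every OSA library on one side of the control library. Fibroblasts, tenocytes, mural cells and endothelial cells also had every OSA library above the control library for Col6a1. For Col15a1 and Col6a1 the difference between the classes was not tested, and no one of the 6 log2 changes given passed edgeR's test in its own class.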

How the results depend on the processing

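No value changed to the opposite side with a call under any alternative run. Leaving out 1 OSA library at a time, the genes that rose numbered between 0 and 6 in endothelial cells (main 0), 0 and 4 in mural cells (main 0), 0 and 3 in macrophages (main 0), 0 and 1 in fibroblasts (main 0, Col24a1), 0 and 4 in lymphatic endothelial cells (main 2), 0 and 1 in Schwann cells (main 1) and 2 and 4 in T and NK cells (main 1). The genes that fell numbered between 0 and 1 in fibroblasts (Col26a1), in macrophages (Col8a1), in satellite cells (Col15a1) and in cluster 12, and 0 and 3 in cluster 10 (Col4a3, Col4a5 and Col6a6, without OSA 1). The genes whose change differed between classes numbered between 0 and 6 for fibroblasts against tenocytes and 0 and 1 against Schwann cells. For these runs the share of all genes is not given. With DESeq2, 2 genes rose in endothelial cells, 1 in macrophages, 0 in lymphatic endothelial cells and 0 in Schwann cells. With no filter on low counts, 4 rose in endothelial cells, 4 in macrophages, 4 in T and NK cells, 1 in mural cells and 1 in fibroblasts, and 1 fell in fibroblasts and 1 in satellite cells. With at least 10 counts in every library, 0 rose in lymphatic endothelial cells. With doublet calls kept, 0 rose in lymphatic endothelial cells, 0 in Schwann cells and 4 in T and NK cells, and the OSA minus control difference in the collagen share was 0.00955 percentage points in macrophages (main 0.0216) and 0.0336 in neutrophils (main -0.0351). Clustering with the collagen genes left 1 gene that rose in lymphatic endothelial cells, and thinning to equal totals left 1. At Leiden resolution 0.5, 1 gene rose in satellite cells (Col1a2). The calls over all genes changed too. Without OSA 1, 111 of 13330 genes rose in mural cells, against 4 of 13864 in the main test. In that run 89 of 9510 rose in lymphatic endothelial cells (main 14 of 9775). In T and NK cells it was 139 of 7859 (main 91 of 8052). Without OSA 2, 539 of 12964 rose in macrophages (main 30 of 13235) and 168 of 16339 in fibroblasts (main 0 of 16716). With no filter, 123 of 24425 rose in endothelial cells and 407 of 21946 in macrophages. The cause was not tested in any of these cases. Col3a1 in T and NK cells was the one call that held in all 11 alternatives. The calls in clusters 8 and 19 come from tests added after the clusters were seen and were not run under the alternatives. No paired analysis was possible because the OSA and control libraries with a matrix share only replicate number 2. Depth limits chains with few UMIs in a class, such as Col15a1 with 20 UMIs in control neutrophils.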

Other observations

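One unnamed cluster stood out in 1 library. Cluster 11, led by Tenm2, Sfrp5 and Igfbp6, with Col1a1 also among its leading genes, held too few markers of any list for a name. It had 104, 265 and 102 cells in OSA 1, 2 and 3 and 118 in control 2. Col1a1 was 944, 9819 and 1304 CPM there in OSA 1, 2 and 3 and 882 CPM in control 2. Col1a2 was 859, 5247 and 732 CPM in the OSA libraries and 709 CPM in the control library, and Col3a1 was 635, 1551 and 655 CPM in OSA and 494 CPM in control. OSA 2 thus held most of the type I collagen of the cluster, while Col4a1 was 581, 594 and 470 CPM in OSA and 779 CPM in control.

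Some rare chains had a narrow range of clusters. Col25a1, a transmembrane collagen needed for motor nerves to enter muscle in mice, averaged 9.34 CPM in mural cells, and cluster 18 held 40.1 CPM. Col19a1 was 40.9 CPM in mural cluster 19. Col17a1, known from the anchoring plaques of skin, and Col7a1, the chain of anchoring fibrils, averaged at most 1.91 and 1.67 CPM in any of the 10 classes compared. The Epithelial-like cluster 30, with 27, 1 and 50 cells in OSA 1, 2 and 3 and 8 in control 2, was too small to be compared. It held 197, 1 and 389 UMIs of Col17a1 in the OSA libraries and 29 in the control library, and 16, 0 and 24 UMIs of Col7a1 in the OSA libraries and 5 in the control library.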
